A study of Mus musculus with 21 samples.

Results

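The Ras family genes described here are Mras, Eras, Hras, Nras, Rras and Rras2, which encode small GTPases, and Shoc2, which encodes a scaffold that works with Mras. These 7 genes were taken by symbol from 53796 genes in the deposited expression tables of mouse embryonic stem (ES) cells, and all 7 were found. The set was chosen by the measured difference of Mras between Dot1l knockout (KO) and control cells in medium with leukemia inhibitory factor (LIF), where Mras was strongly lower. Values from the comparison in LIF are therefore a description of the 7 genes and carry no test.

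The cells were V6.5 ES cells, maintained on inactivated mouse embryonic fibroblasts in serum medium with 100 U/ml LIF. Dot1l is the methyltransferase for lysine 79 of histone H3. RNA sequencing covered 3 Dot1l KO and 3 control libraries in LIF, and 3 Dot1l KO and 3 control libraries after 24 h with Wnt3a (50 ng/ml) and activin A (10 ng/ml) on gelatin in N2B27 medium with the kinase inhibitor Y-27632. The control cells are labelled WT and their titles name a guide RNA (sgRNA). A further 3 libraries came from untreated ES cells labelled Cdk1as/as, which carry an analog-sensitive form of the kinase Cdk1. Neither a clonal or pooled origin of the KO cells nor separate cultures for the replicates is stated, so each p-value reflects library-to-library spread, which may be technical.

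Ras proteins are switches that are active with GTP bound and inactive with GDP bound. Growth factor receptors activate them through adaptors and exchange factors such as Sos1, GTPase-activating proteins such as Nf1 turn them off, and active Ras recruits Raf kinases, which start the MEK and ERK cascade. Active Mras forms a complex with Shoc2 and protein phosphatase 1 that removes an inhibitory phosphate from Raf. Eras is known from mouse ES cells, where it is active without a stimulus and signals through PI3 kinase. In ES cells LIF favours self-renewal, while ERK signalling favours the start of differentiation.

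Levels are given in FPKM (fragments relative to transcript length and library total), which allows genes to be compared per length. Dot1l transcript was at 10.3 ± 1.23 FPKM in KO cells and 22.1 ± 2.19 FPKM in control cells in LIF, and at 13.7 ± 0.897 FPKM in KO cells and 18.4 ± 0.687 FPKM in control cells under Wnt3a and activin A (SD, n = 3 each). It was lower but still present in every KO library. Summed over 12 pluripotency markers, levels were 4782 to 5043 FPKM in KO cells and 5675 to 5819 FPKM in control cells in LIF, and 3096 to 3368 FPKM in the Cdk1as/as cells. Under Wnt3a and activin A they were 1268 to 1378 FPKM in KO cells and 2245 to 2391 FPKM in control cells, with 12 primitive streak and endoderm markers at 1233 to 1288 FPKM in KO cells and 739.1 to 796.5 FPKM in control cells. Summed over 13 fibroblast and feeder markers, levels in LIF were 79.4 to 86.5 FPKM in KO cells and 42.7 to 63.8 FPKM in control cells, with Dcn and Lum under 0.1 FPKM in both. Under Wnt3a and activin A this sum was 133.6 to 142.3 FPKM in KO cells, with Dcn and Lum under 0.1 FPKM, and 298.6 to 330.6 FPKM in control cells, with Lum under 0.1 FPKM. Of 8 tested markers Tagln fell there (78.4 FPKM in KO cells and 270.2 FPKM in control cells), and Col1a1, Col1a2, Col3a1 and Timp3 rose. One library stood apart: in KO replicate 3 in LIF 28.6% of all FPKM belonged to Mir6236, a short RNA gene, against 5.25% to 8.31% elsewhere in that table.

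The 7 genes lie on 5 chromosomes (RefSeq, GRCm38.p6). Mras is at chromosome 9, 99385420 to 99437700, Nras at chromosome 3, 103058285 to 103067914, and Shoc2 at chromosome 19, 53944232 to 54033280. Hras (141189934 to 141194019), Rras (45017942 to 45021646) and Rras2 (114046782 to 114117781) share chromosome 7, and Eras is at chromosome X, 7924276 to 7928607. They range in span from 3705 bases for Rras and 4086 bases for Hras to 89049 bases for Shoc2. In RefSeq 135 bases of Eras overlap Pcsk1n and 396 bases of Shoc2 overlap Bbip1, so reads there may be shared, while the authors' tables list no other gene within the loci of Mras, Hras, Nras and Rras.

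The 250 bases before the RefSeq start (GRCm38.p6) are printed for the 4 genes with the largest differences below: Mras and Eras, which were lower together in KO cells in LIF, and Hras and Rras, which fell together in KO cells under Wnt3a and activin A. Capitals mark the GC box (GGGCGG) and the CCAAT box, each searched on both strands, and no TATA box (TATAAA) was found in these windows.
Mras, chr9:99436713-99436962, minus strand: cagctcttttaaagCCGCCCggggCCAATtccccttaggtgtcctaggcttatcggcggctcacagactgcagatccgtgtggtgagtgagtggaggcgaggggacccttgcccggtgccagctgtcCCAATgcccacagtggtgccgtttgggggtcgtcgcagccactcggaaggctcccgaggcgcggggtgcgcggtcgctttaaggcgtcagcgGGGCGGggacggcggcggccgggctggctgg
Eras, chrX:7928608-7928857, minus strand: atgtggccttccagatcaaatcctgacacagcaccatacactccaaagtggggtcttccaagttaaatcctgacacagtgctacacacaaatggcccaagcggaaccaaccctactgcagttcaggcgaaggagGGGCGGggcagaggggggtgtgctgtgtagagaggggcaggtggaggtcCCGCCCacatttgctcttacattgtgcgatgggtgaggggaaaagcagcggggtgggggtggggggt
Hras, chr7:141194005-141194254, minus strand: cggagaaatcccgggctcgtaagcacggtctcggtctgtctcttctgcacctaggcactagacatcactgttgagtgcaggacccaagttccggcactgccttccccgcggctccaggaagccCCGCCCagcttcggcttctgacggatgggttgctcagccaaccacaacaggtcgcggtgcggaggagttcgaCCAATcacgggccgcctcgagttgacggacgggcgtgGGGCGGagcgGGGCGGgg
Rras, chr7:45017692-45017941, plus strand: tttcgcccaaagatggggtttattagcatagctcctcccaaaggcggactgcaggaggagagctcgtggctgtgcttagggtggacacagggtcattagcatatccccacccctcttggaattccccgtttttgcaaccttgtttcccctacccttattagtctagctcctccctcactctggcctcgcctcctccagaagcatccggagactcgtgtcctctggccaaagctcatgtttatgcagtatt

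The listed Mras and Hras starts lie inside the outer limits of the genes given above. The whole Mras window and the last few bases of the Hras window thus fall within those limits. The Mras window held 2 GC boxes and 2 CCAAT boxes, the Eras window 2 GC boxes and the Hras window 3 GC boxes and 1 CCAAT box. The window of the first of 3 listed Rras starts held no match, which says only that these letters are not in it. Among 32851 windows of the same length before RefSeq starts, 32.7% held a GC box and 33.8% a CCAAT box, so such matches are common. The windows differed more in CpG dinucleotides, with 24 each for Mras and Hras against 6 for Eras and 7 for Rras, where the median of all windows was 6. The pair that was lower in LIF and the pair that fell under Wnt3a and activin A thus each joined a CpG-rich window with one near the median.

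In LIF, Mras was the member that differed most between KO and control cells. It was at 9.60, 10.9 and 6.44 FPKM in the KO libraries and at 27.8, 25.5 and 29.5 FPKM in the control libraries. The groups did not overlap, and the highest KO value was well under the lowest control value. The KO mean of 8.98 ± 2.29 FPKM was 0.325 of the control mean of 27.6 ± 2.00 FPKM (SD, n = 3 each), a log2 fold change of -1.55 (SE 0.18) on the log2(FPKM + 1) scale. Ordered by decrease it ranked 74 of 13153 genes, and 3.45% of those genes were called lower. In these bulk libraries fewer cells that express a gene and less transcript per cell cannot be told apart. The lowest KO value came from replicate 3, the library with the high Mir6236 share, and the log2 fold change without that library was -1.35.

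Eras was also lower in KO cells in LIF. It was at 26.0, 26.0 and 28.8 FPKM in the KO libraries and at 44.0, 42.4 and 45.7 FPKM in the control libraries, with no overlap. Its log2 fold change was -0.69 (SE 0.06). Pluripotency markers moved with it: 7 of 12 fell (limma adjusted p under 0.05), where 3.45% of all genes did. Among them were the transcription factor genes Esrrb (155 FPKM in KO cells and 217 FPKM in control cells) and Sox2 (157 FPKM in KO cells and 212 FPKM in control cells). Both calls ended when any 1 library was left out (limma adjusted p from 0.0501 to 0.0781). Fbxo15 of the same list was at 77.8 FPKM in KO cells and 62.9 FPKM in control cells, but did not pass (limma adjusted p = 0.143). The part of the lower pluripotency markers, and of the higher fibroblast marker sum, in the Eras and Mras values was not tested.

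The other 5 members differed less in LIF. Hras, a classical Ras, was at 61.0, 54.4 and 57.9 FPKM in KO cells and at 70.6, 59.6 and 71.4 FPKM in control cells, and the groups overlapped. Nras, its close relative, was at 109.6, 90.1 and 100.4 FPKM in KO cells and at 127, 105 and 139.8 FPKM in control cells, again with overlap. Rras, which is known for a role in integrin-mediated adhesion, was at 43.7, 42.5 and 46.7 FPKM in KO cells and at 49.1, 54.2 and 53.6 FPKM in control cells, without overlap. Log2 fold changes were -0.21 for Hras (SE 0.09), -0.30 for Nras (SE 0.12) and -0.23 for Rras (SE 0.06). Rras2 averaged 28.0 ± 1.36 FPKM in KO cells and 27.5 ± 1.88 FPKM in control cells, and Shoc2 averaged 10.1 ± 0.103 FPKM in KO cells and 9.88 ± 0.323 FPKM in control cells (SD, n = 3 each). Groups did not overlap for 3 of the 7 members, Mras, Eras and Rras, where 31.2% of all genes tested had groups that did not overlap. The median log2 fold change of all genes in LIF was -0.07.

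**Figure D1:**
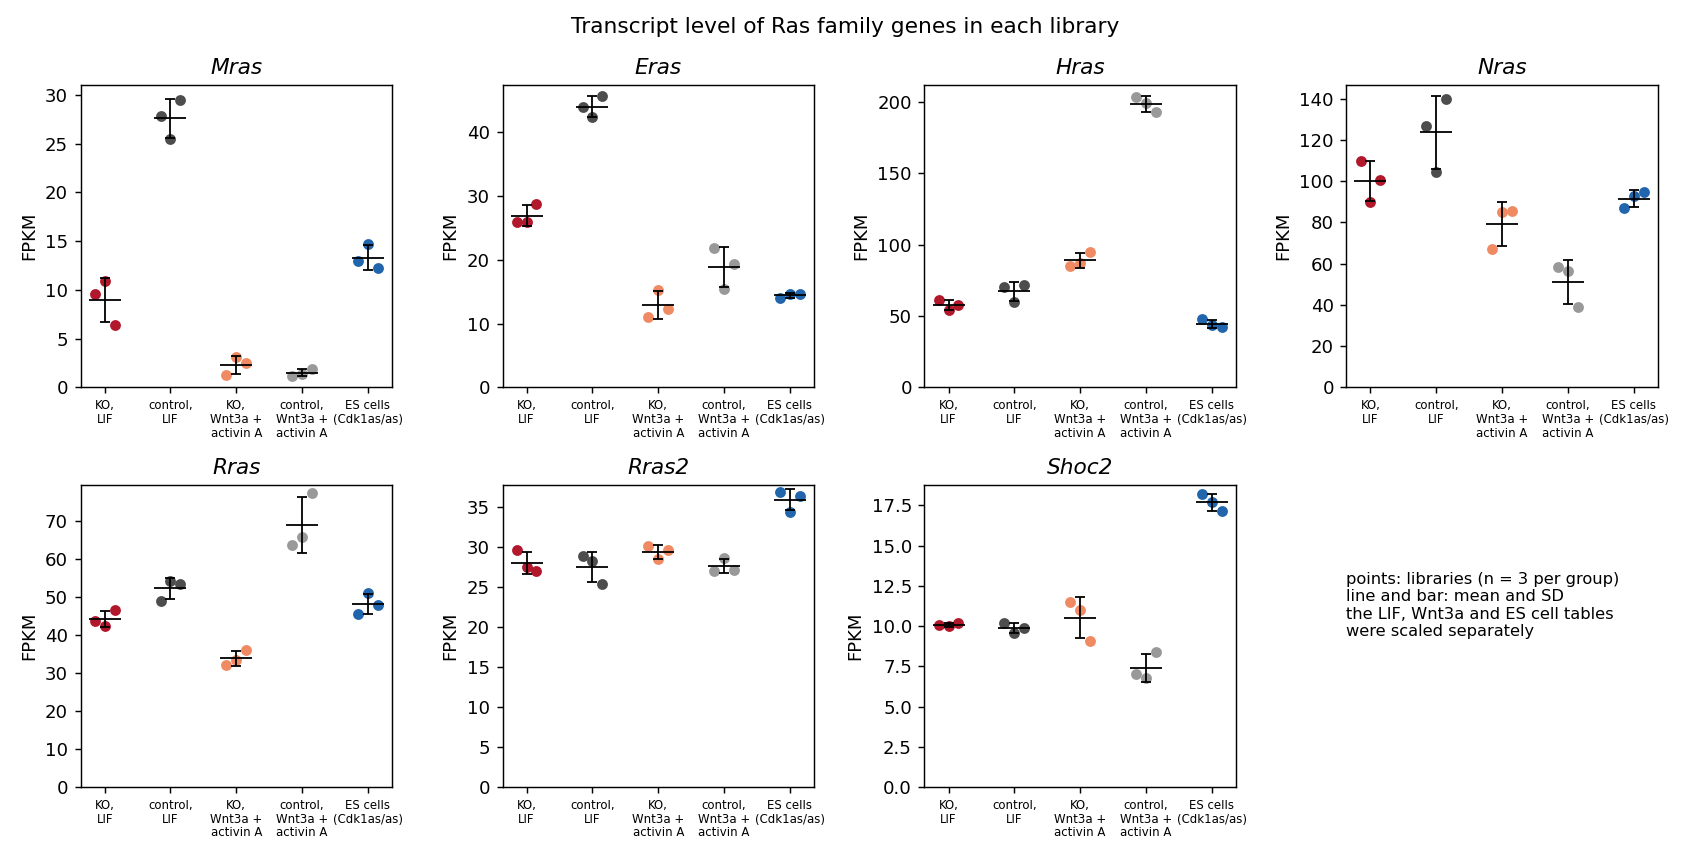
FPKM (y axis) of each Ras family gene in each library, by group (x axis), with 3 libraries per group as points and the mean and SD as line and bar. Mras was at 6.44 to 10.9 FPKM in KO libraries and 25.5 to 29.5 FPKM in control libraries in LIF, and Hras at 85.3 to 95.1 FPKM in KO libraries and 193 to 203 FPKM in control libraries under Wnt3a and activin A.

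Under Wnt3a and activin A, a comparison that was not used to pick the genes, Hras and Rras fell in KO cells and Nras and Shoc2 rose. Eras fell, and Mras and Rras2 did not pass the test. Of the 7 members 5 passed a limma adjusted p of 0.05, 2 higher and 3 lower, where 49.1% of all 12770 genes tested passed, so a member past the threshold was no unusual gene in this table. The part of the fibroblast, pluripotency and streak marker differences in the members' values was not tested. The groups did not overlap for 5 of the 7, where 60.1% of all genes had groups that did not overlap.

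Hras had the largest change of the 7 in this comparison. It was at 85.3, 87.1 and 95.1 FPKM in the KO libraries and at 203, 199 and 193 FPKM in the control libraries. Every KO value was under every control value. The KO mean was 0.449 of the control mean, with a log2 fold change of -1.15 (SE 0.06, limma adjusted p = 7.05e-05). Rras was at 32.2, 33.4 and 36.1 FPKM in KO cells and at 63.6, 65.9 and 77.3 FPKM in control cells, again without overlap. This was a log2 fold change of -1.001 (SE 0.09, limma adjusted p = 0.000362). Both calls held in limma without any 1 of the 6 libraries and under each other scaling tried.

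Nras went the other way. It was at 66.9, 85.2 and 85.7 FPKM in KO cells and at 58.4, 56.2 and 38.8 FPKM in control cells, with no overlap and control replicate 3 lowest. Nras thus had a log2 fold change of 0.64 (SE 0.18, limma adjusted p = 0.0283). The call ended without KO replicate 2 (adjusted p = 0.0846), without KO replicate 3 (adjusted p = 0.0833) and with no filter on low values (adjusted p = 0.0601), and the authors' deposited table gives a q-value of 0.0553.

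Shoc2 was at 11.5, 10.99 and 9.08 FPKM in KO cells and at 7.02, 6.77 and 8.40 FPKM in control cells, without overlap. This was a log2 fold change of 0.45 (SE 0.12, limma adjusted p = 0.0222). Without KO replicate 1 or 2, or control replicate 1 or 2, its adjusted p in limma lay between 0.0660 and 0.0716, and with quantile normalization it was 0.0600. The authors' deposited table gives Shoc2 a q-value of 0.00399.

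Eras was at 11.1, 15.3 and 12.3 FPKM in KO cells and at 21.9, 15.5 and 19.3 FPKM in control cells. The groups did not overlap, but the highest KO value and the lowest control value lay close together. Eras thus had a log2 fold change of -0.52 (SE 0.16, limma adjusted p = 0.0392). The call ended without KO replicate 1 or 3 or control replicate 1 or 3 (limma adjusted p from 0.0993 to 0.112), with no filter on low values (adjusted p = 0.0788) and with median-of-ratios rescaling (adjusted p = 0.0606). The authors' deposited table gives Eras a q-value of 0.000585. Pluripotency markers were again lower beside it, with 8 of 11 tested past the threshold as lower and 2 as higher. Among all genes 29.5% were lower and 19.6% higher.

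Mras, the gene with the large difference in LIF, was near its lowest level here in both groups. It was at 1.31, 3.09 and 2.49 FPKM in KO cells and at 1.22, 1.36 and 1.91 FPKM in control cells, and the groups overlapped. The log2 fold change of 0.37 (SE 0.25, limma adjusted p = 0.261) did not pass, and at such levels the log2(FPKM + 1) scale understates change. Rras2, a relative of Rras, averaged 29.4 ± 0.841 FPKM in KO cells and 27.6 ± 0.848 FPKM in control cells (SD, n = 3 each), with a log2 fold change of 0.09 (SE 0.05, limma adjusted p = 0.225). With median-of-ratios rescaling its log2 fold change was 0.18 (adjusted p = 0.0453) and with quantile normalization 0.22 (adjusted p = 0.0276), so its call depends on the scaling. The difference between the 2 conditions was not tested for any member, since the comparison in LIF had chosen them.

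Fold changes of all genes tested in this table moved with gene span, and those of the members did so only in part. Hras, Rras and Eras fell, but Nras, also short at 9630 bases, rose. The 501 genes nearest in span had a median log2 fold change of -0.40 for Hras, -0.44 for Rras and -0.40 for Eras, which are short, against 0.16 each for Rras2 and Shoc2, which are long, and -0.25 for Nras. Spans were RefSeq's for the members and the loci of the authors' tables, which can hold several genes, for all others. The 501 genes nearest in level had medians of -0.48 for Hras, -0.31 for Rras, -0.05 for Eras and -0.36 for Nras. Those medians were -0.16 for Rras2 and 0.105 for Shoc2. Mras, which did not pass, had medians of 0.04 by span and 0.09 by level. Hras and Rras lay below and Nras above both of their medians. After removal of the trends with span and level, an alternative chosen after seeing the data, log2 fold changes were -0.54 for Hras (limma adjusted p = 0.000649), -0.52 for Rras (adjusted p = 0.00508) and 1.06 for Nras (adjusted p = 0.00499). Those of Eras (-0.26, adjusted p = 0.216) and Shoc2 (0.23, adjusted p = 0.175) no longer passed.

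**Figure D2:**
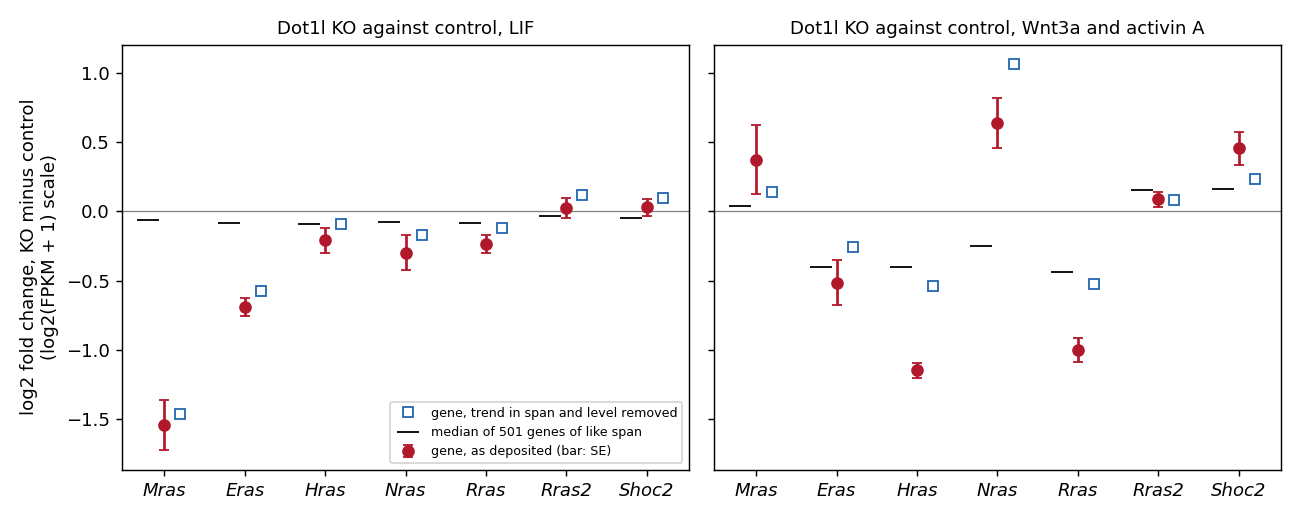
Log2 fold change, KO minus control on the log2(FPKM + 1) scale (y axis), of each gene (x axis), for both culture conditions. Red points with SE are the values as deposited (3 KO and 3 control libraries), blue squares those after detrending on span and level, and black lines the median of 501 genes of like span; Mras stands at -1.55 in LIF and Nras stands at 0.64 as deposited and 1.06 after removal under Wnt3a and activin A.

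The order of the members by level differed between groups. In LIF it was Nras, Hras and Rras in KO cells and in control cells, with values of neighbours not overlapping. Below these, Rras2 and Eras overlapped in KO cells, followed by Shoc2 and Mras, which overlapped with each other. In control cells Eras came next, then Mras and Rras2, which overlapped, then Shoc2. Under Wnt3a and activin A, Hras and Nras overlapped at the top in KO cells, while in control cells Hras (198 ± 5.28 FPKM) stood far above Rras (68.9 ± 7.36 FPKM) and Nras (51.1 ± 10.8 FPKM; SD, n = 3 each). Mras was the lowest of the 7 in both groups of that table and in the Cdk1as/as cells, where its range overlapped that of Eras.

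The Cdk1as/as cells held Mras at 12.95, 14.7 and 12.2 FPKM and Eras at 14.0, 14.7 and 14.6 FPKM. These values lay between those of LIF control cells and Wnt3a-treated control cells for Mras, and below both for Eras. Shoc2 (17.7 ± 0.512 FPKM) and Rras2 (35.9 ± 1.30 FPKM; SD, n = 3) had their highest group means there. The fibroblast and feeder marker sum was 156.3 to 209.5 FPKM in the Cdk1as/as cells. That lay between LIF control cells (42.7 to 63.8 FPKM) and Wnt3a-treated control cells (298.6 to 330.6 FPKM). Its part in the members' levels was not tested. The 3 tables were scaled separately and the cells differ in genotype, so these levels are set side by side with no test.

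A share within a library does not depend on how libraries are scaled to each other. Of the summed FPKM of the 6 GTPases, Hras held 37.6%, 34.5% and 36.4% in KO cells and 54.2%, 54.3% and 54.0% in control cells under Wnt3a and activin A. Nras held 29.5%, 33.7% and 32.8% in KO cells and 15.5%, 15.3% and 10.8% in control cells. The shares of both genes did not overlap between groups, and neither did those of Rras, Rras2 and Mras. Of these, Rras was lower and Rras2 and Mras were higher in KO cells. The share of Eras overlapped, at 5.22% ± 0.740 in KO cells and 5.15% ± 0.822 in control cells (SD, n = 3 each). The shares in a library add up to the whole, so a lower share of Hras raises the others. In LIF the shares of Hras (21.7% ± 0.0975 in KO cells and 19.6% ± 0.699 in control cells) and Nras (37.6% ± 1.69 in KO cells and 36.0% ± 2.54 in control cells) differed by less between groups, without overlap for Hras and with overlap for Nras. Mras held 3.39% ± 0.964 in KO cells and 8.07% ± 0.0517 in control cells there (SD, n = 3 each). The sum itself was 247 ± 17.9 FPKM in KO cells and 366 ± 9.09 FPKM in control cells under Wnt3a and activin A, and 266 ± 14.0 FPKM in KO cells and 342 ± 25.7 FPKM in control cells in LIF. The FPKM of all genes together were also lower under Wnt3a and activin A, at 759255 to 792381 in KO cells and 1.08797e+06 to 1.14437e+06 in control cells.

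**Figure D3:**
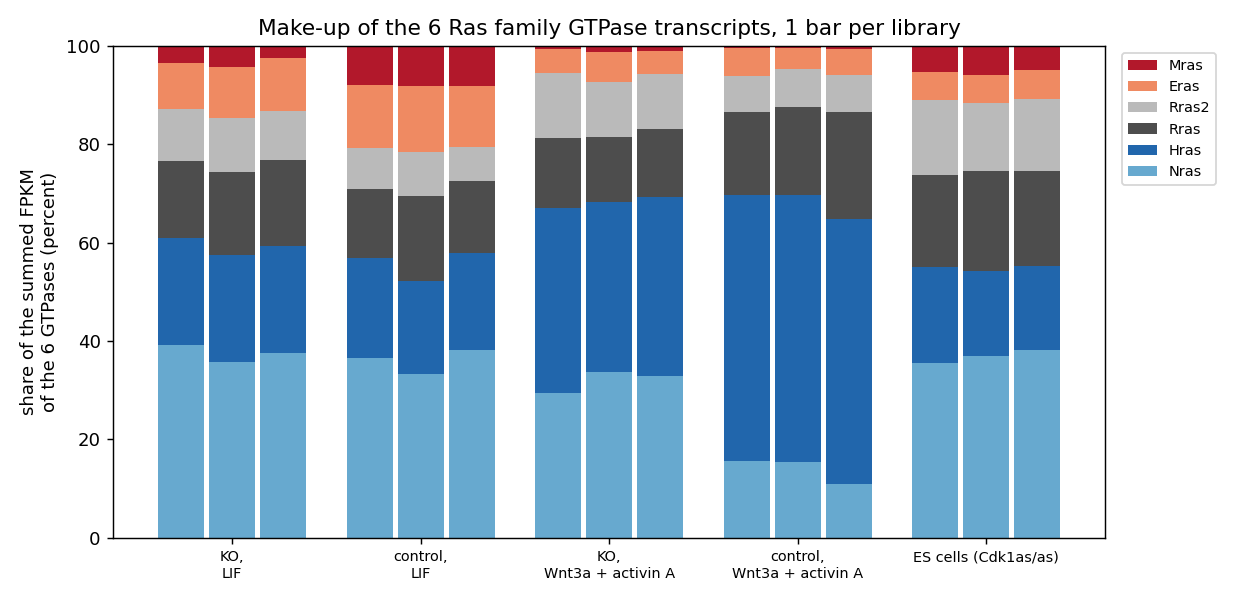
Share of each gene in the summed FPKM of the 6 Ras family GTPases (y axis, percent), with 1 stacked bar per library and 3 libraries per group (x axis). Under Wnt3a and activin A Hras took 34.5% to 37.6% in KO libraries and 54.0% to 54.3% in control libraries, and in LIF Mras took 2.41% to 4.34% in KO libraries and 8.01% to 8.11% in control libraries.

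Genes upstream and downstream of Ras were followed in 10 lists with 128 genes. In LIF 5 of 116 tested genes passed in limma (4.31%, against 4.41% of all genes), and all 5 were in the list of ERK feedback and target genes. The other 9 lists had 0 of 100 past the adjusted threshold and 24 at an unadjusted p under 0.05. Among all genes 3228 of 13153 were at an unadjusted p under 0.05, a share near that of these lists. In the ERK list 4 of 16 fell and 1 rose, with a median log2 fold change of -0.18 against -0.07 for all genes. Spry2, which encodes a feedback inhibitor of receptor signalling to ERK, fell to 44.2, 43.8 and 41.8 FPKM in KO cells, against 68.2, 75.4 and 71.7 FPKM in control cells (log2 fold change -0.72, SE 0.06, limma adjusted p = 0.0124). Its relative Spry4 had a log2 fold change of -0.55, Dusp6, the phosphatase that switches off ERK, -0.47, and Myc -0.47. The gene that rose was the immediate early gene Egr1 (0.25, limma adjusted p = 0.0392), named here after its value was seen. The 4 decreases lay between limma adjusted p-values of 0.0124 and 0.0383. The Myc call ended with quantile normalization (adjusted p = 0.0798), median-of-ratios rescaling (0.0692), no filter on low values (0.0662), limma without a trend (0.0611) and removal of the span and level trend (0.0893), and the Dusp6 call ended in limma without a trend (0.0529). Calls in LIF were few once any library was left out: 1 to 40 genes of the whole table then passed, and of the 4 only Spry2 without control replicate 1 still did.

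Under Wnt3a and activin A 38 of 113 tested genes of the lists rose and 26 fell (56.6%, against 49.1% of all genes, of which 19.6% were higher and 29.5% lower). The lean of all genes to lower values depends on the scaling: 3063 were higher and 3156 lower with median-of-ratios rescaling, and 2746 higher and 2889 lower with quantile normalization. The ERK feedback and target genes differed there too, with 9 of 16 higher and 1 lower, and a median log2 fold change of 0.21 against -0.08 for all genes. The immediate early gene Fos rose to 23.4, 31.1 and 25.0 FPKM in KO cells, against 9.70, 11.4 and 10.5 FPKM in control cells (log2 fold change 1.25, SE 0.12, limma adjusted p = 0.000484). Spry4 (0.82) and Dusp4 (0.79) also rose, and Ier3 (-0.78) fell. Spry4 thus fell in LIF and rose under Wnt3a and activin A, as did Dusp6 (0.56, limma adjusted p = 0.00199) and Myc (0.23, adjusted p = 0.0148). Spry2, which also fell in LIF, did not pass here (0.04, limma adjusted p = 0.617). Dusp6, Myc and Spry2 are named here for their decrease in LIF, and the difference between conditions was not tested. After removal of the span and level trend, 10 of the 16 were higher and 1 lower.

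Of 12 tested GTPase-activating proteins and Spred adaptors, which turn Ras off or help to, 6 rose and 0 fell in limma, and 7 were at an unadjusted p under 0.05. Among all 12770 genes tested 19.6% rose, 29.5% fell and 7190 were at an unadjusted p under 0.05. Spred2, an adaptor that brings Nf1 to Ras, was at 19.9, 20.5 and 20.2 FPKM in KO cells and at 8.90, 9.80 and 8.45 FPKM in control cells (log2 fold change 1.08, SE 0.07, limma adjusted p = 0.000144), and Spred1 rose by 0.93 on the log2 scale. Rasal1 (0.73) and Rasa2 (0.61), which speed the GTP hydrolysis of Ras, rose as well. After removal of the span and level trend 3 of the 12 were higher, a share near that of all genes (2572 of 12770 higher), and the Rasa2 call also ended without KO replicate 3 (limma adjusted p = 0.0524) or control replicate 2 (adjusted p = 0.0506). Of 4 tested exchange factors, which load Ras with GTP, Rasgrp4 (-1.15) and Rasgrp2 (-0.81) fell and Sos1 (0.53) rose, though its value was 0.22 after removal of the span and level trend (limma adjusted p = 0.118). Among adaptors that link receptors to Ras, 3 of 8 rose and 1 fell, with Frs2 at 0.86, the phosphatase gene Ptpn11 at 0.82, Shc4 at 0.55 and Gab1 at -0.67. The Shc4 call ended without KO replicate 2 or 3 or control replicate 2 or 3 (limma adjusted p from 0.0743 to 0.106).

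The catalytic subunits of protein phosphatase 1, the partners of Mras and Shoc2, did not move together under Wnt3a and activin A. Ppp1cb (0.59) and Ppp1cc (0.45) rose, as did Erbin (0.61), and Ppp1ca (-0.55), the most abundant, fell to 370 FPKM in KO cells, against 544 FPKM in control cells. The value of Ppp1ca turned to 0.078 after removal of the span and level trend and its call ended with quantile normalization (limma adjusted p = 0.0578), while the Ppp1cc call ended without control replicate 1 (adjusted p = 0.0506). Erbin was at 0.32 after that removal (limma adjusted p = 0.0761), and its call ended. In this list 3 of 6 rose and 1 fell. Braf, which encodes a Raf kinase, rose. It was at 4.69, 6.38 and 5.21 FPKM in KO cells and at 1.84, 1.89 and 1.75 FPKM in control cells (log2 fold change 1.18, SE 0.13, limma adjusted p = 0.000695). Of 14 tested effectors 2 rose and 4 fell, among them Rgl1 (0.82) and Rgl3 (-0.82), both exchange factors for Ral.

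Of 11 kinases and scaffolds of the MEK and ERK step 5 rose and 5 fell, with Ksr1, a scaffold for Raf and MEK, at 0.91 and Lamtor2 and Lamtor1, which hold a MEK scaffold at the lysosome, at -0.86 and -0.76. Enzymes that attach, trim or remove the lipid anchor of Ras gave 3 higher and 5 lower of 13, with the depalmitoylating enzyme genes Lypla1 (1.00), Abhd17b (0.74) and Abhd17a (-0.72), and Icmt, which methylates the Ras tail, at -0.88. The Icmt call ended without any KO replicate or control replicate 1 (limma adjusted p from 0.0599 to 0.0712). The PI3 kinase and Akt list had 5 of 12 higher and 2 lower, with Pdpk1 (1.45), Pik3r1 (0.89) and Akt2 (0.62) higher and Tsc2 (-1.53) lower. With quantile normalization the calls of Tsc2 (limma adjusted p = 0.0569) and Rala (adjusted p = 0.0650) ended. Of 17 other small GTPases of the Ras branch 1 rose, Rap2c (0.55), and 5 fell, among them Rit1 (-0.60), Rhebl1 (-0.59) and Rala (-0.49). The authors' tables list other genes within the loci of many named genes, among them 14 for Sox2, 9 for Ppp1cb, 7 for Tagln, 5 each for Braf and Lamtor1, 4 for Rgl1 and 3 each for Lypla1, Rasgrp4, Actn1 and Timp3, so their values are uncertain.

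**Figure D4:**
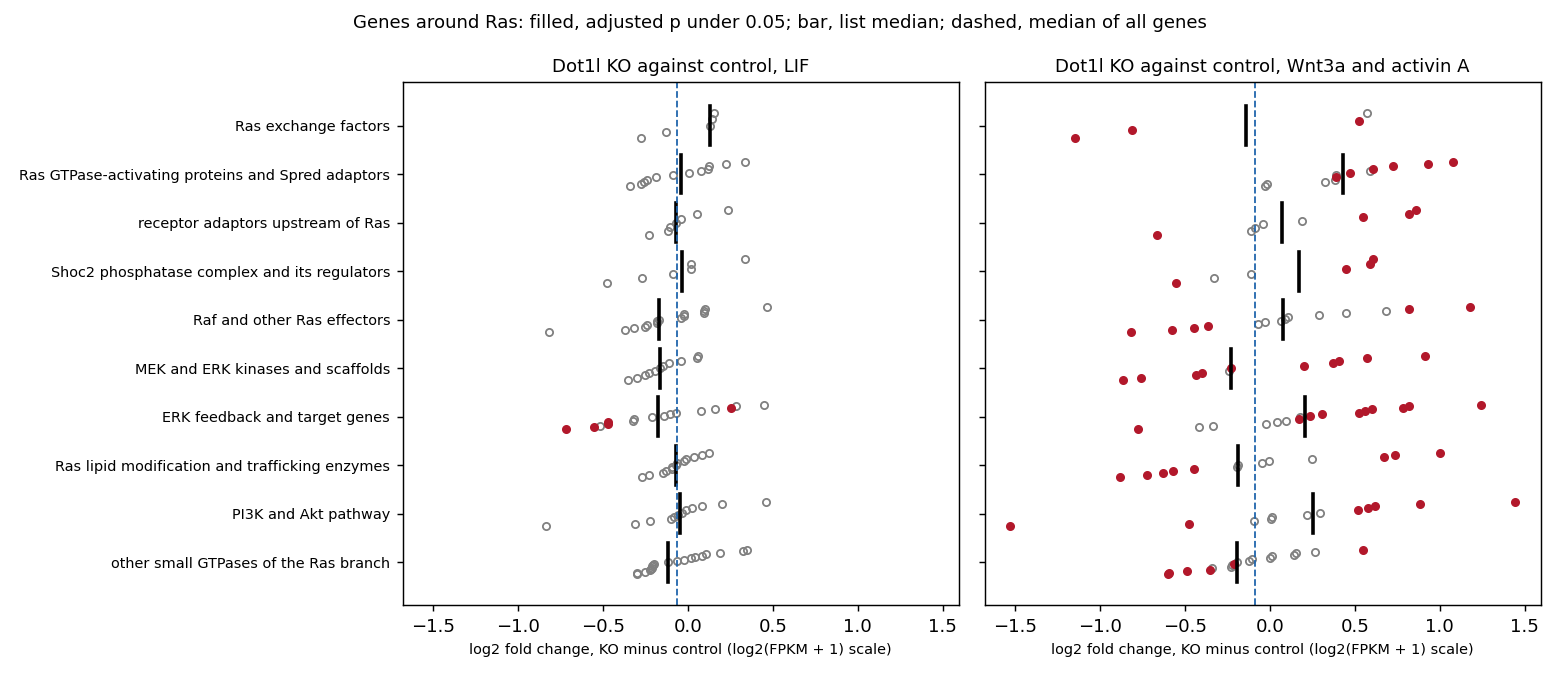
Log2 fold change, KO minus control on the log2(FPKM + 1) scale (x axis), of the genes of 10 lists around Ras (y axis), for both culture conditions; filled points passed a limma adjusted p of 0.05, black bars are list medians and the dashed line is the median of all genes. In LIF filled points appear in the ERK feedback and target list alone (5 of 116 genes tested), against 64 of 113 under Wnt3a and activin A.

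The genes most like Mras were taken as those with the highest Pearson correlation over the 12 libraries of both KO tables, on log2(FPKM + 1) centred on each table. Among 9222 candidates these were Tspan14 (r = 0.946), Wdr76 (0.943), Glyr1 (0.942), Wwtr1 (0.933) and Tubb2b (0.933). Their differences were far smaller than that of Mras: Tspan14 averaged 15.1 FPKM in KO cells and 19.4 FPKM in control cells in LIF, and Tubb2b averaged 139 FPKM in KO cells and 186 FPKM in control cells. Those most like Eras were Impa2 (r = 0.964), Foxd3 (0.961), Smagp (0.958), Zfp296 (0.951) and Actn1 (0.945), and Foxd3, a transcription factor gene, averaged 5.21 FPKM in KO cells and 9.97 FPKM in control cells in LIF. The libraries of a group share their KO or control state, so these correlations describe the group differences and carry no test.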

How the data were processed

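RNA libraries (15) were grouped, and replicates numbered, by the sample titles in the labels. The authors deposited gene-level FPKM for each library. The submitters' processing notes name Cufflinks 2.2.1, Cuffdiff and STAR 2.5.4a and the builds GRCm38 and mm9, with no roles. How libraries were scaled, strandedness and the annotation release were not stated in the labels or file headers. The authors' deposited table also gives a q-value per gene. FPKM keeps no read totals, so depth is unknown and low values are imprecise. Of 53796 gene IDs 53616 matched a table of symbols, and 27 symbols turned into dates were restored.

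Within each KO table limma 3.58.1 with trend (R 4.3.3) compared log2(FPKM + 1) of genes averaging 1 FPKM or more, two-sided, with Benjamini-Hochberg adjustment over all genes and a threshold of 0.05. The test was checked on simulated data. Members and lists were chosen with earlier results of these data known. All 7 members passed the filter in both tables. In each list and comparison the text names up to 4 genes that passed, by size of change, and the 5 genes most like Mras and most like Eras among named genes reaching 5 FPKM in a group. A further gene met this rule and is not reported here. Promoter sequences are RefSeq's (GRCm38.p6; 7 of 7 members matched). The deposited peak lists were not joined to genes: of GRCm38 gene starts on chromosome 3, 1.41% lay in a Thio-ChIP peak as given and 12.6% when moved by -196500 bases, so that list is not in GRCm38 coordinates, and both H3K79me2 lists also had their highest overlap at a shift.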

Additional observations from a re-analysis of the deposited data

How the results depend on the processing

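In LIF 580 genes passed (126 higher, 454 lower). Without a filter on low values the count was 259, and it was 360 with median-of-ratios rescaling (164 higher, 196 lower), 269 with quantile normalization (127 higher, 142 lower), 236 in limma without a trend, 222 after removal of the span and level trend (116 higher, 106 lower), and 1 to 40 without any 1 library, lowest without control replicate 2. With the replicate number as a block 0 genes passed in LIF in limma (2733 at an unadjusted p under 0.05). Deviations of same-numbered libraries correlated at -0.003 to 0.043 in LIF and at -0.012 to 0.062 under Wnt3a and activin A, and not every library correlated best with its own number, so the numbers are not taken as pairs. Under Wnt3a and activin A the count of 6273 stayed within 1.5 times under each alternative. Of the 7 members 5 passed there, against 3 with no filter, 2 with the replicate block (Hras and Rras), 3 after removal of the span and level trend and 3 to 4 without any 1 library. In LIF the log2 fold change of Mras ranged from -1.69 to -1.35 and that of Eras from -0.74 to -0.58 over all alternatives. Ppp1ca changed sign after removal of the span and level trend (0.078, limma adjusted p = 0.116). Of the refits of named list genes without 1 library, 59 of 60 lost the threshold in LIF and 11 of 306 under Wnt3a and activin A. The causes of these changes were not tested, except that leaving out a library also leaves fewer residual degrees of freedom.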
